A study of Mus musculus with 6 samples.

Results

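The 10 genes described here encode enzymes that build glucose, split it or take up fructose carbon in the mouse kidney, and all 10 were found among the 22180 genes measured. They were taken by gene symbol: the gluconeogenic G6pc, Fbp1, Pck1, Pck2 and Pcx, the fructose enzyme Khk, and the glycolytic Hk1, Hk2, Pfkp and Ldha. Each was read from its transcript cluster, the set of array probes summarised for a transcript, that carried that symbol alone and had the highest mean. Each gene had 1 such cluster. RNA from adult kidneys was hybridised to 6 arrays of the Affymetrix Mouse Gene 2.1 ST type. The 3 arrays labelled Pax28 dKO (replicates 1, 3 and 5, here the arrays labelled dKO) came from mice with floxed Pax2 and Pax8 alleles on both chromosomes and a tamoxifen-activated Cre recombinase expressed from Rosa26, a locus active in most cell types and not only in the tubule. The 3 control arrays (replicates 2, 4 and 6) came from mice without Cre. All mice, controls included, ate the same chow and were given tamoxifen (50 mg/kg, 3 consecutive days) when 8 weeks old, with a second course at 10 weeks. RNA was taken from bisected kidneys 14 days after the second course. Each group held 2 females and 1 male, and the males were dKO 1 and control 4. Nothing in the labels ties each array to its own animal, so a p-value here reflects spread among these samples, which may be technical in part.

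The kidney is, besides the liver, the organ that releases newly made glucose into blood, and in the kidney this takes place in the proximal tubule. There Pcx (pyruvate carboxylase) makes oxaloacetate, Pck1 and Pck2 (the cytosolic and mitochondrial phosphoenolpyruvate carboxykinases) turn it into phosphoenolpyruvate, Fbp1 (fructose-1,6-bisphosphatase) passes the step that phosphofructokinase drives the other way, and G6pc (the glucose-6-phosphatase catalytic subunit) frees glucose. The proximal tubule also takes up fructose, which Khk (ketohexokinase) phosphorylates. Later nephron segments, immune cells and fibroblasts rely more on glycolysis, which begins with the hexokinases Hk1 and Hk2, passes phosphofructokinase (of which Pfkp is the platelet-type isoform) and can end with Ldha, a lactate dehydrogenase subunit.

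Of the 10 genes, Khk (lower on the arrays labelled dKO) and Pck2 (higher) passed the test across all genes described below; Fbp1, Pcx, Pck1 and Pfkp differed with intervals on 1 side of 0 but did not pass. The 300 bases around the annotated transcription start of each (250 before it and 50 after it) are shown for these genes and for Pck1, the sister enzyme of Pck2. Capitals mark exact matches, on either strand, to 4 groups of letters: CACGTG, known as the E-box; a paired-domain core, GTCACG, which lies within the sequence that Pax2 and its relatives are described to recognise; ACGTCA, part of the cAMP response element; and GTTAAT, part of an HNF1 site. The sequences are RefSeq's on build GRCm38.p6, all on the plus strand: Khk at chr5:30921309-30921608, Pck2 at chr14:55540016-55540315 and Pck1 at chr2:173152823-173153122.
Khk: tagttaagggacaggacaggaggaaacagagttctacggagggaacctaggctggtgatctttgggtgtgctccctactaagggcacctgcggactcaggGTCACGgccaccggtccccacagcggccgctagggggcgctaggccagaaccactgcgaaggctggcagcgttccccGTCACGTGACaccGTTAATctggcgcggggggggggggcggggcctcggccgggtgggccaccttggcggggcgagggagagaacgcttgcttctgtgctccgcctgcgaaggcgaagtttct
Pck2: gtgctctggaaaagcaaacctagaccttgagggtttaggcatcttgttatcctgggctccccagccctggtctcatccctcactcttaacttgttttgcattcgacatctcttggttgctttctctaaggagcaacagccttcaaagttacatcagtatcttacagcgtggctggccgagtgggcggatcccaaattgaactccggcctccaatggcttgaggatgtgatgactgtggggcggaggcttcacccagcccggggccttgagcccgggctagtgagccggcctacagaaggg
Pck1: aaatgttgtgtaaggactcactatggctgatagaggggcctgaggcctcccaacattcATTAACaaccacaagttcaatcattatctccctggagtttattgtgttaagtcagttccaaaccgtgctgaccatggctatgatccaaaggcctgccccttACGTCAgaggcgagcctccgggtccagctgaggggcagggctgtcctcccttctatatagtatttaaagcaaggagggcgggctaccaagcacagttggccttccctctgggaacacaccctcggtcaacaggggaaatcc
The Khk window held GTCACG 3 times, with first bases at -150, -73 and -69 relative to the start, and the matches at -73 and -69 overlap each other and the E-box at -71. It also held GTTAAT at -60. The Pck2 window held none of the 4. The Pck1 window held ACGTCA at -91 and GTTAAT, read on the other strand, at -192. Of 32851 RefSeq windows of this length, 8.22% held GTCACG on either strand, 7.15% the E-box, 7.51% ACGTCA and 7.1% GTTAAT. All 10 genes matched a window, 13 windows in all since Pcx, Hk1 and Ldha have 2 each; GTCACG was found for Khk and Hk1, the E-box for Pcx, Khk and Ldha, ACGTCA for Pck1, Hk2 and Ldha, and GTTAAT for G6pc, Pck1 and Khk. These are matches of letters in the reference and no binding was measured.

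Differences were tested with limma, a linear model with a variance shared in part across genes, with genotype and sex as terms. A gene was called where the Benjamini-Hochberg adjusted p over all 22180 genes was below 0.05. Values are log2 expression values as deposited, and a log2 difference is the arrays labelled dKO minus the controls, adjusted for sex, with its standard error (SE). Across the series 1596 genes, 7.2%, were called, 913 higher (4.12%) and 683 lower (3.08%); with each array centred on its median the split was 713 higher and 1194 lower. Without control 2 the count was 344 and without control 6 it was 356. Dim genes, with a mean below the lower quartile of all genes (2.98), are part of this background. With them removed, 1835 of 16635 genes were called, 1033 higher and 802 lower, which are larger shares. None of the 10 genes was dim, so the shares of all genes given below are a low background for brighter genes. Across genes, any pair of arrays correlated at a Pearson's r of 0.979 to 0.995. The targeted genes did not fall: Pax8 had 10.11, 10.59 and 10.39 on the arrays labelled dKO, against 9.09, 9.0 and 8.89 on the controls, a log2 difference of 1.36 ± 0.12 (SE; limma adjusted p = 0.0037), and Pax2 differed by 0.27 ± 0.10 (adjusted p = 0.19). Which exons Cre removes is not in the labels, and probes outside them check nothing, and every direction given here is that of the label.

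Of the 10 genes, 2 were called (20%, against 7.2% of all genes), 1 in each direction, and the median log2 difference was -0.01, as it was over all genes. The groups did not overlap for 5 of the 10, Pck1, Pck2 and Pfkp with all 3 arrays labelled dKO above all controls and Fbp1 and Khk with all 3 below them. The background share without overlap was 22.5% of all genes, 11.7% upward and 10.8% downward. With 10 genes these shares describe the list only. Neither the gluconeogenic nor the glycolytic enzymes lay on 1 side: the 5 gluconeogenic genes ranged from -0.63 to 0.65 and the 4 glycolytic genes from -0.06 to 0.48.

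**Figure D1:**
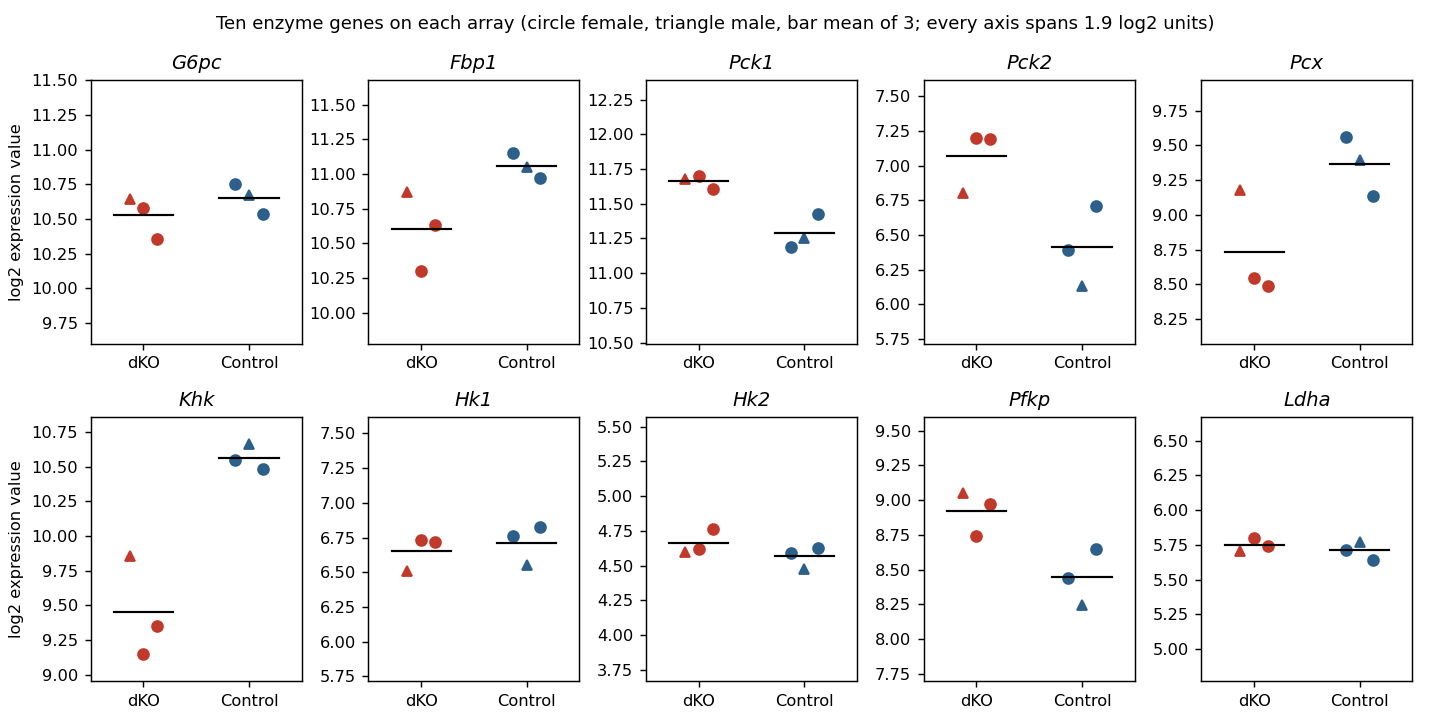
Log2 expression value of each of the 10 genes (vertical axes, each spanning the same range) on the 3 arrays labelled dKO (left) and the 3 control arrays (right). Points are arrays, with triangles for males, and bars are means of 3. Khk lies between 9.15 and 9.86 on the arrays labelled dKO, below every control, while the points of G6pc, Pcx, Hk1, Hk2 and Ldha overlap between the groups.

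Khk had 9.86, 9.15 and 9.36 on the arrays labelled dKO, against 10.55, 10.66 and 10.48 on the controls. All arrays labelled dKO were below all controls, the male (dKO 1) least so. Khk (Entrez gene 16548) averaged 9.46 ± 0.36 on the arrays labelled dKO and 10.56 ± 0.09 on the controls (SD, n = 3 each) and fell 2.15-fold, with a log2 difference of -1.11 ± 0.12 (SE; limma adjusted p = 0.0066). The difference was -0.80 between the males and -1.26 between the female means; the genotype by sex term was 0.46 ± 0.20 (SE; adjusted p = 0.73), in a model where 1 of 22180 genes passed. Whichever array was dropped, Khk stayed called (adjusted p between 0.0059 and 0.041).

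Fructose transport and breakdown genes other than Khk were mostly lower too. Of the 8 genes listed for fructose and polyol metabolism 4 were measured; 3 of these were called, all lower, with a median of -0.56, against 3.08% of all genes called lower. Slc2a5, the fructose transporter GLUT5, had 8.12, 8.30 and 8.13 on the arrays labelled dKO, against 8.87, 9.20 and 8.99 on the controls. It fell by 0.84 ± 0.11 on the log2 scale (SE; limma adjusted p = 0.010), and the groups did not overlap. Tkfc, the triokinase that phosphorylates the glyceraldehyde made from fructose, had 8.81, 8.05 and 8.29 on the arrays labelled dKO, against 8.98, 9.08 and 8.86 on the controls. It fell by 0.59 ± 0.13 (SE; adjusted p = 0.043), again without overlap. Glyctk, glycerate kinase, fell by 0.53 ± 0.09 (SE; adjusted p = 0.019) and also differed between the sexes (male minus female 0.53, adjusted p = 0.046), so that its groups overlapped. Gckr, the glucokinase regulator, lay between 2.50 and 2.90 on all 6 arrays, with a mean below the lower quartile of all genes (2.98), and differed by 0.05 ± 0.12. With single arrays left out, Slc2a5 lost its call in 1 of 6 fits (without control 6, adjusted p = 0.053), and Tkfc and Glyctk in 4 of 6 each (without control 2 or 6 or dKO 3 or 5, adjusted p up to 0.14 and 0.080).

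Some markers of the proximal tubule were lower on the same arrays. Of 16 such markers 4 fell (25%, against 3.08% of all genes called lower) and none rose, with a median of -0.35, and the log2 of their summed linear values lay between 14.28 and 14.92 on the arrays labelled dKO and between 14.96 and 15.14 on the controls. The glucose transporter Slc5a2 fell by 2.95 ± 0.26 on the log2 scale (SE; limma adjusted p = 0.0039), the lactate transporter Slc5a12 by 1.65 ± 0.24 (adjusted p = 0.015) and Miox, which oxidises inositol, by 0.92 ± 0.10 (adjusted p = 0.0067). The dicarboxylate transporter Slc13a3 differed by 0.25 ± 0.08, without overlap (adjusted p = 0.13). The phosphate transporter Slc34a1 fell by 0.47 ± 0.08 (SE; limma adjusted p = 0.022), while the endocytic receptor Lrp2 differed by -0.34 ± 0.14 (adjusted p = 0.21). No marker had a mean below the lower quartile of all genes (2.98). Slc7a13 held the lowest single value, 3.95. It lay at 3.95 to 4.63 on the 4 female arrays, near the array medians (3.81 to 3.87), and at 10.73 and 10.93 on the males. In bulk tissue fewer cells of a type and less RNA per cell cannot be told apart, and the part of the marker difference in the fructose genes was not tested.

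Pck2 had 6.81, 7.20 and 7.19 on the arrays labelled dKO, against 6.39, 6.14 and 6.71 on the controls. The lowest array labelled dKO, the male, lay just above the highest control, a female, and each male was the lowest of its group. Pck2 (Entrez gene 74551) averaged 7.07 ± 0.23 on the arrays labelled dKO and 6.41 ± 0.29 on the controls (SD, n = 3 each) and rose 1.57-fold, with a log2 difference of 0.65 ± 0.10 (SE; limma adjusted p = 0.017). Between the males it was 0.67 and between the female means 0.64. The rise was 0.56 to 0.75 with single arrays left out, but the call was lost in 5 of those 6 fits, all except that without control 6, with adjusted p up to 0.064, and without sex in the model (adjusted p = 0.11).

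Pck1 (Entrez gene 18534), the cytosolic sister enzyme, had 11.68, 11.70 and 11.60 on the arrays labelled dKO, against 11.19, 11.25 and 11.42 on the controls. All arrays labelled dKO lay above all controls. The log2 difference was 0.37 ± 0.09 (SE), with a 95% interval from 0.15 to 0.59, and did not pass (limma adjusted p = 0.065). It passed with a trended robust prior (adjusted p = 0.016) and after quantile normalization (0.035). It did not pass after median centring (limma adjusted p = 0.12), without sex in the model (0.096) or with every row tested (0.17). Nor did it pass whichever array was dropped (0.082 to 0.19).

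Fbp1 (Entrez gene 14121) had 10.87, 10.30 and 10.63 on the arrays labelled dKO, against 11.15, 11.05 and 10.97 on the controls. These groups did not overlap either, but dKO 1 came close to control 6, and the log2 difference of -0.46 ± 0.13 (SE) did not pass (limma adjusted p = 0.097). It was -0.18 between the males, also the value without controls 2 and 6, and -0.60 between the female means. Pcx (Entrez gene 18563) had 9.18, 8.54 and 8.49 on the arrays labelled dKO, against 9.56, 9.39 and 9.14 on the controls. Here the male dKO 1 lay above control 6, so the groups overlapped, and the females of the arrays labelled dKO lay below all controls. The difference was -0.63 ± 0.16 (SE; adjusted p = 0.073). It was -0.21 between the males, which is also the value without controls 2 and 6 (adjusted p = 0.66). It passed where only the 4 females were compared, at -0.83 (adjusted p = 0.041), with a trended robust prior (0.045) and after median centring (0.044). It did not pass without sex in the model (limma adjusted p = 0.17), after quantile normalization (0.090) or with every row tested (0.19). Nor did it pass when control 2, control 6, dKO 3 or dKO 5 was dropped (0.14 to 0.21).

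G6pc (Entrez gene 14377), which carries out the last step, had 10.65, 10.58 and 10.36 on the arrays labelled dKO, against 10.75, 10.67 and 10.53 on the controls. The groups overlapped, and the difference of -0.13 ± 0.10 (SE) did not pass (limma adjusted p = 0.56); its 95% interval ran from -0.37 to 0.12. Slc37a4, which carries glucose-6-phosphate to that enzyme, differed by -0.42 ± 0.16 (SE; adjusted p = 0.18). Of 14 measured further genes of gluconeogenesis and its carbon supply none was called by limma, 3 had an unadjusted p below 0.05 (22% of all genes did), and the median was -0.12. For 6 of the 14 all arrays labelled dKO lay below all controls, and for 0 above them. Over all genes 10.8% lay below and 11.7% above without overlap. The smallest p among them belonged to the glycerol-3-phosphate dehydrogenase Gpd1 (-0.52 ± 0.14, adjusted p = 0.082) and the aspartate-glutamate carrier Slc25a13 (-0.30 ± 0.09, adjusted p = 0.095).

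Brown fat signal differed between the arrays, and adipocytes also express Pck1 and Pcx. Ucp1, the uncoupling protein of brown fat, had 5.12, 4.74 and 3.87 on the arrays labelled dKO, against 7.77, 3.53 and 7.53 on the controls. Both female controls, 2 and 6, had the high values. In the females alone, where Pcx passed, Ucp1 and the label therefore cannot be told apart. None of 7 adipose markers was called (median -0.20; limma adjusted p = 0.35 for Ucp1 and 0.89 for the adipocyte hormone Adipoq), and the log2 of their summed linear values lay between 9.33 and 10.01 on the arrays labelled dKO and between 8.94 and 10.58 on the controls. The part of this signal in the Pcx and Pck1 values was not tested; without the 2 controls with high Ucp1 the log2 difference was -0.21 for Pcx and 0.43 for Pck1, a comparison that rests on the males. None of 8 liver markers (median 0.09) and none of 6 muscle markers was called either. Albumin (Alb) differed by 0.09 ± 0.24 and muscle creatine kinase (Ckm) by -0.04 ± 0.13 (SE). Single arrays varied more: Alb ran from 5.99 to 7.76, and Apoh was 6.31 on dKO 1 and 2.57 to 3.71 on the others. Serpina1a differed by 0.56 ± 0.17 without overlap (limma adjusted p = 0.099). The part of liver signal in the members was not tested.

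Among the glycolytic genes, Pfkp (Entrez gene 56421) had 9.05, 8.74 and 8.97 on the arrays labelled dKO, against 8.44, 8.25 and 8.65 on the controls. All arrays labelled dKO lay above all controls, with 0.09 between the nearest arrays. The difference was 0.48 ± 0.13 (SE), with a 95% interval from 0.15 to 0.80, and did not pass (limma adjusted p = 0.089); it was 0.80 between the males and 0.31 between the female means. The liver and muscle isoforms Pfkl and Pfkm differed by -0.14 ± 0.08 and -0.04 ± 0.08 (adjusted p = 0.37 and 0.84).

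Both hexokinases and Ldha had overlapping groups. Hk1 (Entrez gene 15275) had 6.51, 6.73 and 6.72 on the arrays labelled dKO, against 6.76, 6.55 and 6.82 on the controls, a difference of -0.06 ± 0.07 (SE; limma adjusted p = 0.73) with a 95% interval from -0.23 to 0.12. A second cluster, annotated to both Hk1 and its antisense gene Hk1os, differed by 0.04 ± 0.16 (adjusted p = 0.93, every cluster tested). Hk2 (Entrez gene 15277), the insulin-responsive form, had 4.6, 4.62 and 4.76 on the arrays labelled dKO, against 4.59, 4.47 and 4.63 on the controls. Its difference was 0.09 ± 0.08 (SE; adjusted p = 0.57), with an interval from -0.10 to 0.29. Ldha (Entrez gene 16828) had 5.71, 5.80 and 5.74 on the arrays labelled dKO, against 5.71, 5.77 and 5.64 on the controls, a difference of 0.04 ± 0.08 (SE; adjusted p = 0.83) whose sign turned after quantile normalization (-0.0066) and median centring (-0.033). The intervals of these 3 genes reach from -0.23 to 0.29.

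**Figure D2:**
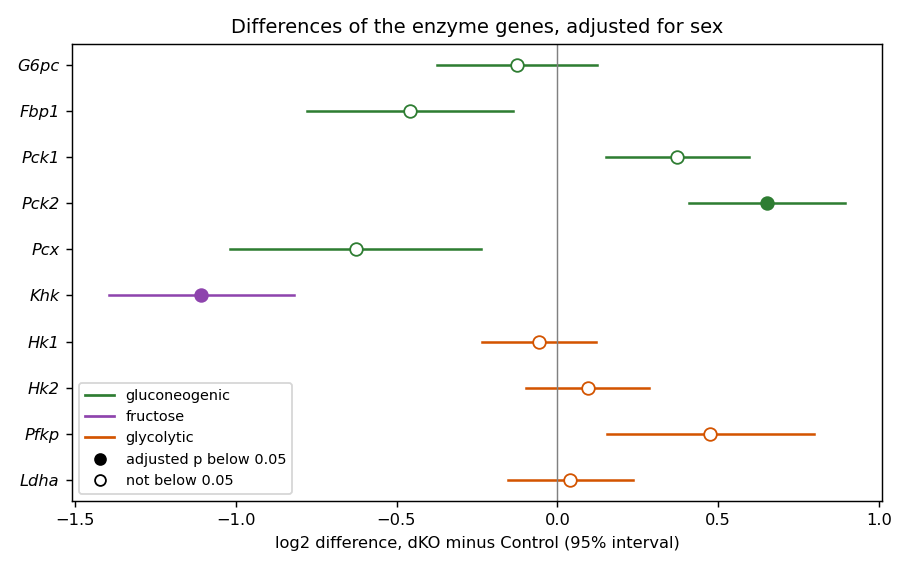
Log2 difference of each gene, arrays labelled dKO minus controls and adjusted for sex (horizontal axis), with its 95% interval from limma's moderated SE. Colours give the role of the enzyme, and filled points have an adjusted p below 0.05. Khk at -1.11 and Pck2 at 0.65 are filled; the intervals of Fbp1, Pck1, Pcx and Pfkp lie on 1 side of 0 but did not pass the adjustment over 22180 genes, and those of G6pc, Hk1, Hk2 and Ldha include 0.

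The opposing and sister enzymes were then compared within each array, since a scaling common to an array drops out of a log2 ratio. Fbp1 over Pfkp, which act against each other at the same step, had log2 ratios of 1.82, 1.56 and 1.66 on the arrays labelled dKO, against 2.71, 2.80 and 2.32 on the controls. All arrays labelled dKO lay below all controls, and the ratio averaged 1.68 ± 0.13 on the arrays labelled dKO and 2.61 ± 0.26 on the controls (SD, n = 3 each). It was 1.91-fold lower on the arrays labelled dKO, with an exact two-sided permutation p of 0.1, the smallest that 3 against 3 arrays allow. Neither gene passed on its own. Without overlap, Fbp1 was lower and Pfkp higher on the arrays labelled dKO. Their ratio therefore had to separate the groups, and its permutation p adds nothing to the results of the single genes.

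The other 4 ratios overlapped between the groups. G6pc over Hk1 differed by -0.07 and G6pc over Hk2 by -0.22 (exact permutation p = 0.8 and 0.3), opposing pairs at the glucose-6-phosphate step. The sisters Pck1 over Pck2 differed by -0.28 (exact p = 0.3) and Hk1 over Hk2 by -0.15 (exact p = 0.2). Adjusted over the 5 ratios the p was 0.375 for all but G6pc over Hk1, where it was 0.8, so none passed, as none could with 3 arrays a group.

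**Figure D3:**
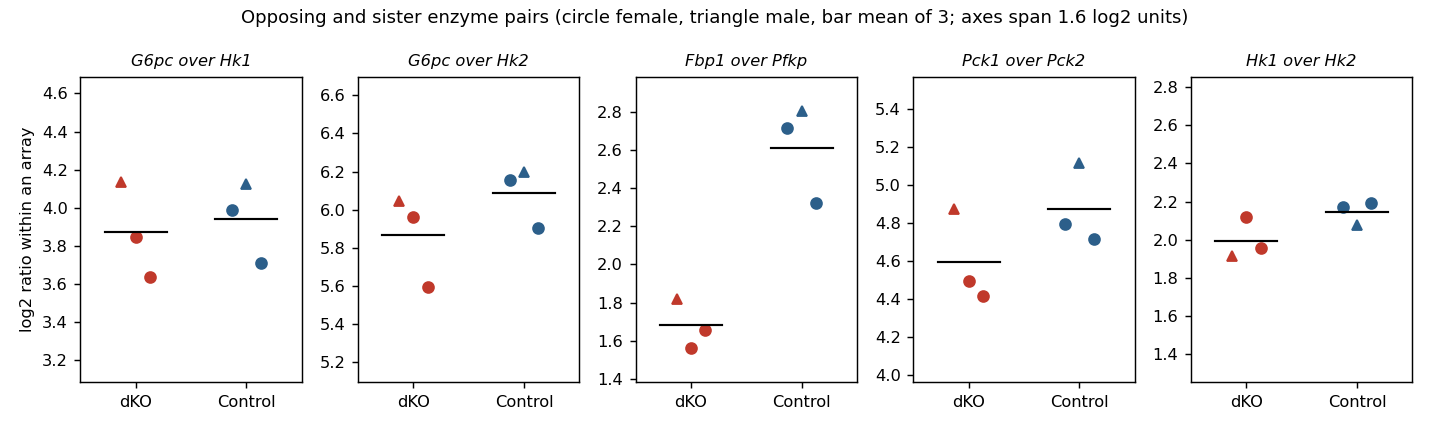
Log2 ratio of 2 enzymes within an array (vertical axes, each spanning the same range) on the 3 arrays labelled dKO (left) and the 3 control arrays (right), for 5 opposing or sister pairs. Points are arrays, with triangles for males, and bars are means of 3. Fbp1 over Pfkp is the pair whose groups do not overlap, at 1.56 to 1.82 on the arrays labelled dKO and 2.32 to 2.80 on the controls. This had to follow, since Fbp1 alone was lower and Pfkp alone higher without overlap.

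Of 15 measured further glycolytic genes 1 was called (6.67%, against 7.2% of all genes), and the median log2 difference was -0.04. Aldoc, the aldolase isoform C, had 5.83, 6.29 and 6.10 on the arrays labelled dKO, against 7.03, 6.56 and 6.83 on the controls. It fell by 0.73 ± 0.09 (SE; limma adjusted p = 0.010) with no overlap, and lost its call without control 2 (adjusted p = 0.051). Gapdh differed by -0.05 ± 0.07 (adjusted p = 0.74). Next by p came the pyruvate kinase Pkm (0.30 ± 0.08, adjusted p = 0.083), which also differed between the sexes (male minus female -0.52, adjusted p = 0.043), and the hexokinase-like Hkdc1 (0.57 ± 0.19, adjusted p = 0.13).

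Of 16 regulators of glycolytic and pyruvate flux 3 fell (18.8%, against 3.08% of all genes called lower) and none rose, with a median of -0.04. They were Pdp2, a phosphatase that activates pyruvate dehydrogenase (-0.69 ± 0.10, SE; limma adjusted p = 0.014), and the kinases that inactivate the same complex, Pdk3 (-0.54 ± 0.09, adjusted p = 0.020) and Pdk1 (-0.38 ± 0.08, adjusted p = 0.041). The called phosphatase and both called kinases had the same sign, but their sister genes, none called, went both ways. Pdk2 differed by -0.31 ± 0.08 (limma adjusted p = 0.073), Pdp1 by 0.23 ± 0.08 (0.15) and Pdk4 by 0.70 ± 0.26 (0.17). Pdk4 also differed between the sexes (male minus female -1.86, adjusted p = 0.031). When arrays were dropped in turn, Pdk1 passed in none of the 6 fits (adjusted p up to 0.14), Pdk3 in the 1 without control 2, and Pdp2 in the 4 other than those without control 2 or control 6.

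Of 16 regulators of gluconeogenic transcription 2 fell (12.5%, against 3.08% of all genes called lower), both hormone receptors, and the list median was -0.06. Pth1r, the parathyroid hormone receptor, had 9.71, 9.06 and 9.37 on the arrays labelled dKO, against 9.90, 10.08 and 9.89 on the controls, and fell by 0.58 ± 0.12 (SE; limma adjusted p = 0.034). Gcgr, the glucagon receptor, fell by 0.62 ± 0.13 (SE; adjusted p = 0.038). Hnf4a, a nuclear receptor needed for proximal tubule and liver gene expression, differed by -0.52 ± 0.14 (adjusted p = 0.086), and dKO 1 lay within the controls. Cebpb (0.49 ± 0.15, limma adjusted p = 0.12, without overlap) and Irs2 (0.59 ± 0.21, adjusted p = 0.15) followed by p, both upward and not called. Dropping 1 array ended the call of Pth1r in 4 of 6 fits (without control 2 or 6 or dKO 3 or 5, adjusted p up to 0.12) and that of Gcgr in all 6 (up to 0.14).

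Of 9 activators of glycolytic genes 2 fell (22.2%, against 3.08% of all genes called lower), with a list median of 0.04. Mlxipl, the carbohydrate-responsive factor ChREBP, which in liver responds to fructose and glucose, had 8.18, 7.49 and 7.57 on the arrays labelled dKO, against 8.39, 8.97 and 8.16 on the controls. The groups overlapped because males were higher (male minus female 0.67, limma adjusted p = 0.028), but within each sex the arrays labelled dKO were lower (-0.78 between the males and -0.74 between the female means). Mlxipl fell by 0.76 ± 0.09 on the log2 scale (SE; limma adjusted p = 0.0089). Its call held whichever array was dropped (adjusted p up to 0.044) and was lost without sex in the model (adjusted p = 0.19). Hif1a, the hypoxia-inducible activator of glycolytic genes, fell by 0.39 ± 0.09 (SE; adjusted p = 0.049) and passed in none of the 6 fits that dropped an array (adjusted p up to 0.15). Next by p came Akt1 (0.27 ± 0.08, limma adjusted p = 0.089) and Myc (0.46 ± 0.14, adjusted p = 0.11), both upward and not called.

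Of the 11 measured genes of the pentose phosphate path and of glycogen synthesis and breakdown 3 rose (27.3%, against 4.12% of all genes called higher) and 0 fell, with a median of 0.09. Pygb, the brain-type glycogen phosphorylase, which breaks glycogen down, had 7.68, 8.16 and 8.16 on the arrays labelled dKO, against 7.54, 7.16 and 7.44 on the controls. It rose by 0.62 ± 0.08 (SE; limma adjusted p = 0.011). Pgm2, a phosphoglucomutase family enzyme, rose by 0.48 ± 0.09 (adjusted p = 0.024) and Pgd, the second dehydrogenase of the pentose phosphate path, by 0.37 ± 0.08 (adjusted p = 0.044). None of the 3 had overlapping groups. Dropping any array ended the calls of Pgm2 and Pgd (adjusted p up to 0.091 and 0.14), and that of Pygb was lost in 2 fits, without control 2 (0.051) or control 6 (0.052).

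Markers of immune and dividing cells were higher on the same arrays as Pck2 and these genes. Of 9 macrophage markers 7 rose (77.8%, against 4.12% of all genes called higher) and none fell, with a median of 1.38. The log2 of their summed linear values lay between 9.95 and 10.67 on the arrays labelled dKO and between 9.03 and 9.18 on the controls. Cd68, a macrophage lysosomal protein, rose by 1.27 ± 0.11 (SE; limma adjusted p = 0.0038). All 7 measured cell cycle markers rose (median 1.65; summed level 9.47 to 10.12 on the arrays labelled dKO and 8.81 to 9.04 on the controls), Mki67 by 2.46 ± 0.20 (adjusted p = 0.0028). Of 8 fibroblast and matrix markers 5 rose (62.5%, median 0.82) and of 9 tubular injury markers 7 rose (77.8%, median 1.45). The injury marker Havcr1 differed by -0.60 ± 0.36 (SE, limma adjusted p = 0.40), with overlapping groups. Of 8 collecting duct markers 5 fell (62.5%, against 3.08% of all genes called lower, median -0.99). Of 8 distal tubule and thick limb markers 1 rose and 1 fell (25%, against 7.2% of all genes called, median 0.03). The part of these cell types in the rises of Pck2, Pygb, Pgm2 and Pgd was not tested.

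**Figure D4:**
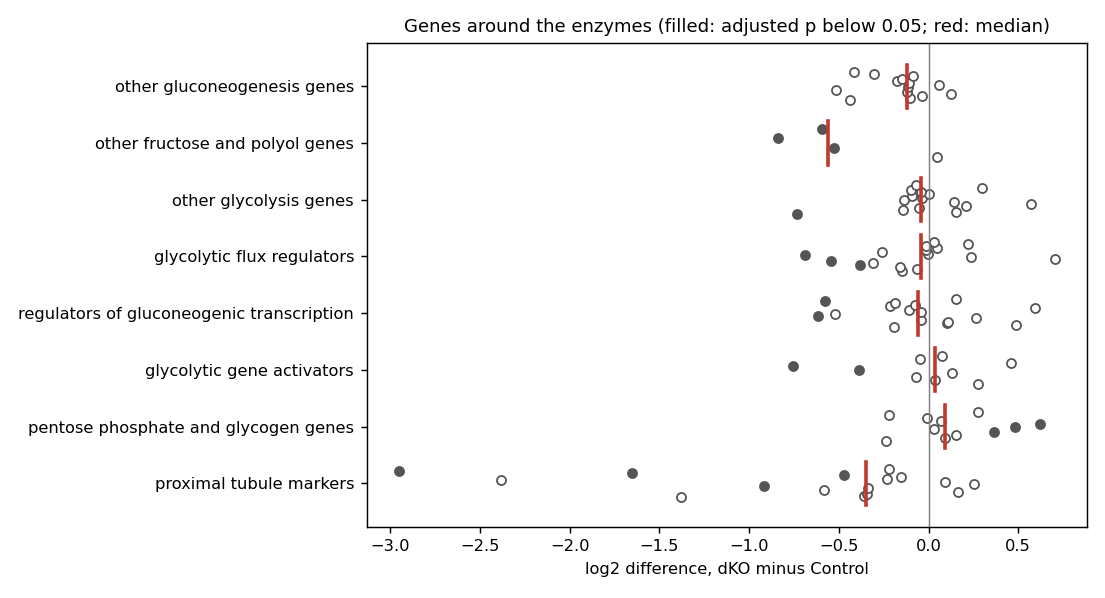
Log2 differences, arrays labelled dKO minus controls and adjusted for sex (horizontal axis), of the measured genes of 7 pathway lists and of the proximal tubule markers. Each point is a gene, filled where its adjusted p is below 0.05, and red bars are medians. The fructose and polyol genes have a median of -0.56 and the proximal tubule markers -0.35, while the glycolysis genes centre on -0.04 and the pentose phosphate and glycogen genes, at 0.09, hold the 3 rises of these 7 lists.

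Over the 7 pathway lists together 14 of 85 measured genes were called (16.5%, against 7.2% of all genes), 3 higher and 11 lower, with a median of -0.05. Of these 85 genes 1 was dim. With dim genes removed 1835 of 16635 genes were called, a share between 7.2% and 16.5%, so the lists stood out less against that background. These lists were chosen with earlier results of the same arrays known.

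None of the 10 genes passed for sex: the smallest adjusted p for male against female was 0.13, for Pck2, while 1.87% of all genes passed. None passed for the genotype by sex term either, which 0.00451% of all genes did (6.99% at an unadjusted p below 0.05). With 1 male in each group these terms rest on few arrays.

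The genes whose values over the 6 arrays were most like those of G6pc were Olfr307, Ydjc and Col19a1, with Pearson's r of 0.99 each, and those most like Hk2 were Mir337, Adnp2 and Sf3b3, also at 0.99. Over 6 arrays 113 of 20432 genes compared reached an r above 0.9 with G6pc and 279 of 21744 did so with Hk2, and none of the 6 named genes was called.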

How the data were processed

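RNA of 6 adult mouse kidney samples was measured, 1 array each. The authors deposited log2 expression values per transcript cluster; RMA, limma and R 3.4.0 are named without roles in the submitters' processing notes, and the sources used here give no build, filter or other version. The values were used as deposited (array medians 3.81 to 3.87).

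Of 41345 clusters, 23521 had 1 symbol in the platform annotation, 1814 several and 16010 none. Gene identifiers matched RefSeq GRCm38.p6 for 23328 of them and changed no symbol. The highest-mean cluster was kept for each of 22180 genes.

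limma 3.58.1 in R 4.3.3 fitted genotype and sex (3 residual and 6.72 total degrees of freedom), with Benjamini-Hochberg adjustment over all genes. Ratios of enzyme pairs were compared by exact permutation (scipy 1.17.1). The members and lists were chosen with earlier results of these data known. Text names the 10 members, Pax2, Pax8, called genes of the lists, up to 3 others by p and defining markers. For G6pc and Hk2 it also names the 3 genes with the highest r. Pfkl, Pfkm, Gapdh, Gckr, Slc5a2, Slc5a12, Miox, Slc13a3, Slc7a13, Havcr1, Pdk4, Apoh and Serpina1a were chosen after their values were seen. Of 101 pathway entries 85 were measured and 16 were not analysed here. Alternatives changed the samples (each array dropped in turn, the 4 females), the model (sex omitted, a trended robust prior, weights per array), the scaling (median centring, quantile) and the genes tested (dim ones dropped, clusters averaged, every row kept). The number of arrays limits the precision.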

Additional observations from a re-analysis of the deposited data

Results flagged for a closer look

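Ldha differed in opposite directions in the sexes: the male array labelled dKO was below the male control (log2 difference -0.067), while each female array labelled dKO was above each female control, by 0.03 to 0.16. This difference between the sexes rests on 1 male per group and was not tested by this comparison; limma's genotype by sex term for Ldha was -0.16 ± 0.17 (SE; adjusted p = 0.91).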

How the results depend on the processing

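Khk was lower in all 16 alternative settings (-1.26 to -0.80) and called in all but 1, the fit without controls 2 and 6 together, which was chosen after seeing the data and called no gene at all (-0.80, adjusted p = 0.34; 0 members either way and 0 pathway genes either way; 0 of 22180 genes, with the comparison resting on the males). Pck2 was higher in all 16 (0.56 to 0.75) and lost its call in 9: without sex (0.65, adjusted p = 0.11), in the females alone (0.64, 0.052), with every row tested (0.65, 0.075), without controls 2 and 6 (0.67, 0.34) and in 5 of the fits with 1 array left out, over which its difference ranged from 0.56 to 0.75. Leaving out either male gives the same fit as the females alone. Single arrays left out gave 0 to 1 members called higher, 1 to 2 lower (Khk and, in the females, Pcx), 0 to 2 pathway genes higher and 2 to 10 lower, against 1, 1, 3 and 11 in the model reported.

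Members called higher numbered 0 without sex, in the females alone and with every row tested, 3 with a trended robust prior (Pck1, Pck2 and Pfkp) and 2 after quantile normalization (Pck1 and Pck2). Members called lower numbered 2 in the females alone, with a trended robust prior and after median centring (Khk and Pcx). Pathway genes called higher numbered 0 without sex and with every row tested and 6 with the trended robust prior; those called lower numbered 2 without sex and 1 with every row tested. Among all genes 471 were called without sex, 613 and 529 without dKO 3 and dKO 5, and 302 of 41345 clusters with every row tested. The sign of Ldha turned after quantile normalization (-0.0066), median centring (-0.033) and without controls 2 and 6 (-0.067). The ratio of Fbp1 to Pfkp differed by -1.08 to -0.84 in its 8 alternatives. That of G6pc to Hk1 turned sign without control 4 (0.023) and without dKO 5 (0.049), against -0.07 over all arrays. No paired analysis was possible because the labels give the groups no replicate number in common. The table gives no scan or hybridisation date, so batches were not tested. Small log2 differences near the SE of about 0.1 are limited by 3 arrays per group.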
